A study of Mus musculus with 9 samples.

Results

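Plasminogen activation genes were followed in RNA from the inner lining of the mouse thoracic aorta. The 6 genes chosen by symbol were Plau and Plat, which encode the plasminogen activators uPA and tPA, Plaur, which encodes the uPA receptor uPAR, Serpine2, which encodes an inhibitor of both activators, and Anxa2 and S100a10, which encode the subunits of a cell surface complex that binds tPA and plasminogen. A named array feature was found for 5 of the 6, 1 transcript cluster each, among 30142 named genes in all. Serpine2 was not analysed here.

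Plasminogen circulates in blood as an inactive protease, and tPA or uPA cuts it to plasmin, which dissolves fibrin and cleaves matrix proteins. Endothelial cells are a main source of tPA in blood vessels. uPA bound to uPAR focuses proteolysis at the surface of moving cells, while the annexin A2 and S100A10 complex holds tPA and plasminogen together on the endothelial surface.

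In ACDiEKO mice (Cdh5-CreERT2 positive) the genes Mef2a, Mef2c and Mef2d were all f/f, that is floxed, next to a recombinase driven by the VE-cadherin promoter and switched on by tamoxifen. Control mice were Cre-negative littermates with the same floxed alleles. All mice were female and received 5 daily tamoxifen injections from 10 weeks of age, so the recombinase and the loss of the MEF2 factors cannot be told apart. The labels give the harvest as 7 days after the first injection in one place and 14 days in another. Each of the 9 Clariom D arrays, 5 ACDiEKO and 4 control, held RNA flushed from 1 aorta. Values are the deposited log2 values, and differences are given in log2 units and not as folds because a scaling step of the table is unknown.

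ACDiEKO replicates 1 and 2 were nearly identical, with a robust SD between them of 0.0707 in bright clusters, where the 15 other pairs from within a group had 0.268 to 0.401. They were averaged, which left 4 ACDiEKO and 4 control samples. The values of the 3 floxed genes did not pass the test (Mef2a 0.12, Mef2c 0.06, Mef2d 0.23), and they summarise probes along the whole transcript, so they do not check the genotype labels. Of 10 endothelial markers, 2 rose (Emcn 3.72, Kdr 0.96), 3 fell (Cldn5 -3.59, Tek -1.92, Pecam1 -0.37) and 5 did not pass, among them the defining gene Cdh5 (15.83 ± 0.18 in ACDiEKO and 15.59 ± 0.21 in control, SD, n = 4 each). Array medians lay between 6.13 and 6.15 in ACDiEKO and between 6.17 and 6.23 in control.

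All 5 measured genes passed the test of ACDiEKO against control, in opposite directions. Plaur and Plau rose, by 2.14 and 1.20 log2 units, and Plat, S100a10 and Anxa2 fell, by 1.11, 0.80 and 0.56. Of all 16403 tested genes, 16.3% passed in either direction, 8.92% higher and 7.33% lower in ACDiEKO, and the median difference was -0.03. Every array lay above the filter value of 6.165, the median of the whole table, for all 5 genes. In bulk RNA of this kind, fewer cells of a type and less RNA per cell cannot be told apart.

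**Figure D1:**
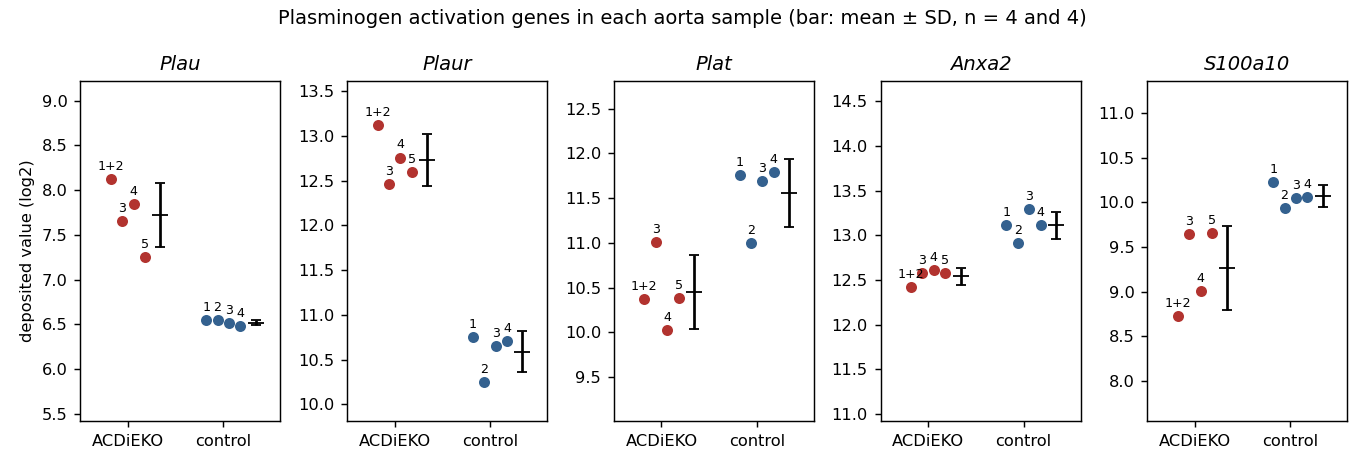
Deposited log2 values (vertical axis, each panel spanning the same number of log2 units) of Plau, Plaur, Plat, Anxa2 and S100a10 in the ACDiEKO (red) and control (blue) samples, with points numbered by replicate and bars for mean ± SD (n = 4 and 4). Plaur values of 12.46 to 13.12 in ACDiEKO stand clear of 10.25 to 10.75 in control, while for Plat ACDiEKO replicate 3 (11.01) and control replicate 2 (11 to 2 decimals) meet.

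Plau, the urokinase activator, had values of 8.12 in the averaged ACDiEKO replicates 1 and 2, 7.65 in replicate 3, 7.85 in replicate 4 and 7.25 in replicate 5, against 6.55, 6.55, 6.51 and 6.48 in control replicates 1 to 4. All ACDiEKO samples were higher than all control samples, with a gap of 0.70 between the groups. The difference was 1.20 (SE 0.17, 95% interval 0.82 to 1.58, adjusted p = 0.00317), the 397th largest rise among the tested genes. Control samples were almost level, with an SD of 0.03, and only 10.0% of tested genes had a lower control mean. ACDiEKO samples were spread, with an SD of 0.36, wider than 88.0% of tested genes had in that group.

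Plaur, the receptor that binds uPA, had the largest change of the 5 genes. Its values were 13.12, 12.46, 12.76 and 12.60 in ACDiEKO (replicates 1 and 2 averaged, then 3, 4 and 5), against 10.75, 10.25, 10.65 and 10.71 in control. The lowest ACDiEKO sample lay 1.71 above the highest control sample. The difference was 2.14 (SE 0.17, 95% interval 1.76 to 2.52, adjusted p = 0.000436), the 121st largest rise. As with Plau, the averaged replicates 1 and 2 were highest and replicate 4 came next. The order of replicates 3 and 5 was the opposite of that for Plau.

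Plat, the tissue-type activator, went the other way from Plau. Its values were 10.37, 11.01, 10.03 and 10.38 in ACDiEKO, against 11.76, 11 (to 2 decimals), 11.69 and 11.79 in control. ACDiEKO replicate 3 met control replicate 2, and the other 3 ACDiEKO samples were lower than every control sample. The difference was -1.11 (SE 0.24, 95% interval -1.68 to -0.55, adjusted p = 0.019), and it did not pass without control replicate 3 (adjusted p = 0.0524), control replicate 4 (0.0563) or ACDiEKO replicate 4 (0.0532). Without control replicate 2, the low control, it was -1.30 (adjusted p = 0.0125).

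Anxa2 encodes annexin A2, the larger subunit of the tPA and plasminogen binding complex. Its values were 12.42, 12.58, 12.61 and 12.58 in ACDiEKO, against 13.11, 12.91, 13.29 and 13.12 in control. The groups did not overlap, and the ACDiEKO samples lay within a narrow band. The difference was -0.56 (SE 0.09, 95% interval -0.77 to -0.35, adjusted p = 0.00601), the smallest of the 5 in size.

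S100a10 encodes the subunit that is known to carry the plasminogen-binding end of the complex. Its values were 8.73, 9.65, 9.01 and 9.66 in ACDiEKO, against 10.23, 9.93, 10.05 and 10.06 in control. All ACDiEKO samples were lower than all control samples, but replicates 3 and 5 were much closer to the controls than the averaged replicates 1 and 2 and replicate 4. The difference was -0.80 (SE 0.21, 95% interval -1.30 to -0.31, adjusted p = 0.0388). The call ended when any 1 control sample was left out (adjusted p = 0.0889, 0.0679, 0.0809 and 0.0851 without control replicates 1 to 4) and without ACDiEKO replicate 4 (0.106).

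Groups did not overlap for 4 of the 5 genes (Plau, Plaur, Anxa2 and S100a10), while 23.0% of all tested genes had groups that did not overlap. The nearest tested protein-coding gene on each side was taken from the RefSeq order of GRCm38.p6, a set chosen after values were seen. Of these 10 neighbours 1 passed, a share no higher than the 16.3% of all tested genes: Vcl, the gene of the adhesion protein vinculin next to Plau, rose by 2.54 (adjusted p = 0.00797).

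RefSeq promoter sequence (GRCm38.p6) was at hand for only 2 of the 5 genes, Plaur and Anxa2, and both are shown. These 2 genes moved in opposite directions. Each run gives the 250 bases before the annotated start, 5′ to 3′ on the plus strand, for Plaur at chr7:24462233-24462482 and for Anxa2 at chr9:69453433-69453682. Capitals mark matches, on either strand, to the AP-1 motif TGANTCA and the KLF motif CACCC.
Plaur: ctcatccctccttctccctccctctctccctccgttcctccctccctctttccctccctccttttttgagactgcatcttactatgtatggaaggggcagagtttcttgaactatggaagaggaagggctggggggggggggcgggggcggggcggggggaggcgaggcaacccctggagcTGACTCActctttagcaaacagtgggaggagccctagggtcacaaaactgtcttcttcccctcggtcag
Anxa2: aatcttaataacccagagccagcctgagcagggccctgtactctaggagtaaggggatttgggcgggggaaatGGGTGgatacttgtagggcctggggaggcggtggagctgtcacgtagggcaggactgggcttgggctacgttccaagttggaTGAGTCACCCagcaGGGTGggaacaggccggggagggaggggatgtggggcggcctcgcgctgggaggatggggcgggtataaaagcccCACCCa
Both windows hold 1 AP-1 match, starting 69 bases before the start in Plaur and 95 bases before it in Anxa2, and such a match lies in 6.7% of the 32851 RefSeq promoter windows of this length. Anxa2 also holds 4 matches to CACCC, a motif found in 52.0% of windows, 1 of which overlaps the AP-1 match. The Plaur window holds none. Neither window matches the TEAD motif GGAATG (12.6% of windows), the MEF2 box (0.5%), the SRF CArG box (1.5%) or the NF-kB box (3.9%). A match is a run of letters and was not tested as a binding site.

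Other genes of the pathway were read from lists by role. Of 56 listed genes, 48 had a named cluster and 23 passed the filter on dim genes; of these 23, 3 rose, 1 fell and 19 did not pass, with a median difference of -0.12, against -0.03 over all tested genes. The share that passed lies near the background of 16.3%. Plg, the plasminogen gene itself, was dim in both groups (5.29 in ACDiEKO and 5.13 in control, below the filter value), as were the fibrinogen genes Fga, Fgb and Fgg.

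Among inhibitors, 4 of 11 listed genes were tested and 1 fell, where 7.33% of all tested genes fell. Serpini1, the gene of neuroserpin, an inhibitor of tPA, had values of 8.05, 8.75, 8.59 and 8.50 in ACDiEKO, against 9.62, 9.96, 9.89 and 9.53 in control. The groups were well apart, and the difference was -1.28 (SE 0.16, adjusted p = 0.00237). Plat and its inhibitor Serpini1 were thus both lower in ACDiEKO. The C1 inhibitor gene Serping1 differed by -0.18 and Serpinb8 by -0.54, and neither passed. Serping1 ranged between -0.47 without ACDiEKO replicate 5 and 0.03 without ACDiEKO replicate 3. It passed with the replicate number as a block over all 9 arrays (-0.69, adjusted p = 0.0092), but these numbers do not pair the arrays. Serpinb8 passed without ACDiEKO replicate 3 (-0.73, adjusted p = 0.0224).

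Among integrins and other partners of uPAR, 2 of 6 tested genes rose and 4 did not pass, where 8.92% of all tested genes rose. Itga5 and Itgb1 encode the chains of the fibronectin receptor, which is known to associate with uPAR. Itga5 had values of 16.03, 15.50, 15.49 and 15.19 in ACDiEKO, against 14.95, 14.52, 14.69 and 14.15 in control, a rise of 0.97 (SE 0.21, adjusted p = 0.0185) with no overlap. Itgb1 averaged 14.40 ± 0.24 in ACDiEKO and 13.88 ± 0.21 in control (SD, n = 4 each), a rise of 0.52 with overlapping groups that was just past the threshold (adjusted p = 0.047). It passed under 8 of 21 alternatives, and did not without control replicate 1, 2 or 4 or ACDiEKO replicate 3 or 4 (adjusted p up to 0.121), with no filter on dim genes (0.0916), with quantile normalization (0.0638), with a variance trend (0.0525) or with the replicate block (0.0765). Itga3 (-0.12) and Itgb5 (-0.15), the brightest of the rest, did not pass.

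Among substrates of the activators or of plasmin, 1 of 3 tested genes rose, where 8.92% of all tested genes rose. Pdgfd, the gene of a growth factor that uPA is known to cut into its active form, averaged 14.85 ± 0.21 in ACDiEKO and 13.50 ± 0.63 in control (SD, n = 4 each). All ACDiEKO samples (14.63 to 15.09) were higher than the highest control (14.36), and the difference was 1.36 (SE 0.29, adjusted p = 0.0165; 0.0531 without ACDiEKO replicate 4). Its relative Pdgfc, a tPA substrate, differed by -0.31 and did not pass, nor did the thrombin receptor gene F2r (0.40).

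None of the tested genes for other receptors and membrane proteins (3), for clearance and internalisation of the activators (5) or for other activating proteases (2) passed in limma. Their brightest members were Stom (-0.87, adjusted p = 0.068) and the plasminogen receptor gene Plgrkt (-0.33), the receptor chaperone gene Lrpap1 (-0.27) and Igf2r (0.08), and the cathepsin genes Ctsb (-0.31) and Ctsl (-0.06). The Stom samples did not overlap between the groups. The Stom difference passed without control replicate 3 (-1.06, adjusted p = 0.0426) and without control replicates 3 and 4 (-1.39, adjusted p = 0.0151). Lrp1, also on the clearance list, differed by -0.95 and did not pass (adjusted p = 0.0642). It passed in limma with the stricter filter on dim genes (adjusted p = 0.0459).

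**Figure D2:**
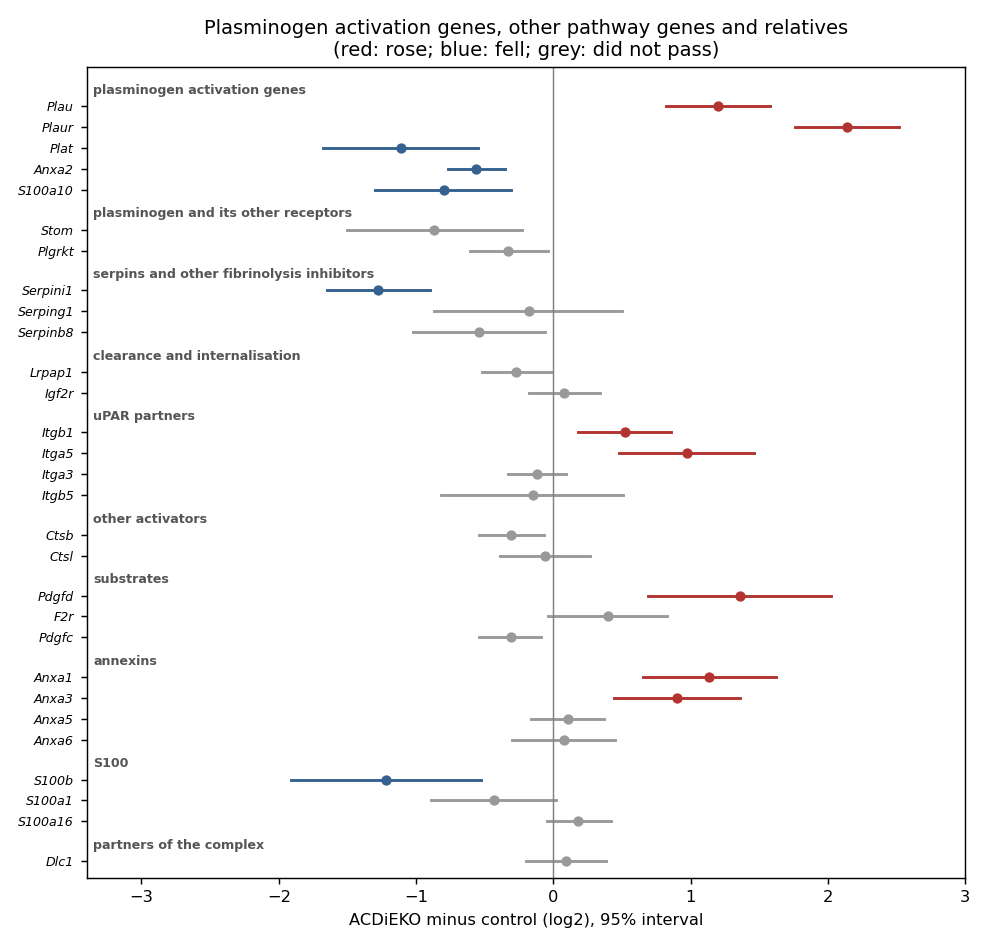
Difference ACDiEKO minus control in log2 units (horizontal axis) with its 95% interval for the 5 plasminogen activation genes and for the named genes of each list, red where the gene rose, blue where it fell and grey where it did not pass. Plaur has the largest rise (2.14) and Serpini1 the largest fall (-1.28) of the genes drawn. Lrp1 is not drawn.

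Of 17 tested relatives and partners of Anxa2 and S100a10, 2 rose, 1 fell and 14 did not pass, a share near the 16.3% of all tested genes. Of 7 tested annexins, 2 rose and none fell, with a median of 0.11. Anxa1, whose protein is known to dampen inflammation, had values of 11.81, 11.05, 11.69 and 11.15 in ACDiEKO, against 10.63, 10.26, 9.95 and 10.33 in control, a rise of 1.13 (SE 0.21, adjusted p = 0.0101). Anxa3 averaged 15.66 ± 0.35 in ACDiEKO and 14.76 ± 0.27 in control (SD, n = 4 each), a rise of 0.90 (adjusted p = 0.0197; 0.0605 without ACDiEKO replicate 4). The groups of both genes were apart, while Anxa5 (0.11) and Anxa6 (0.08) did not pass.

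Of 9 tested S100 genes, 1 fell and 8 did not pass, and their median was -0.41; the share that fell is near the 7.33% of all tested genes. S100b, a calcium-binding protein gene best known from glia, averaged 7.53 ± 0.44 in ACDiEKO and 8.75 ± 0.52 in control (SD, n = 4 each), a difference of -1.22 (adjusted p = 0.0289). It passed under 11 of 20 alternatives, and did not without control replicate 2, 3 or 4 or ACDiEKO replicate 4 (adjusted p up to 0.0772). The brightest others, S100a1 (-0.43) and S100a16 (0.18), did not pass, nor did Dlc1 (0.09), whose protein binds S100A10.

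Genes nearest in pattern were found as those with the smallest root mean square difference, in log2 units, of values centred on their mean over the 8 samples. For Plau these were Kif18b (0.047) and Brip1 (0.111), a mitotic kinesin gene and a DNA helicase gene. For Plaur they were Txndc5 (0.210) and Rasa3 (0.239), farther away than for Plau. For Plat they were Gm15530 (0.155) and Nicn1 (0.157), and for Anxa2 they were Bbx (0.085) and Tnk1 (0.088). For S100a10 they were Adipor2 (0.112) and Dgka (0.127), neither of which passed the test (-0.65 and -0.68, adjusted p = 0.0622 and 0.0595). Between the genes themselves the distance was 0.516 for Plau and Plaur and 0.298 for Anxa2 and S100a10. It was 0.412 for Plat and Anxa2 and 0.341 for Plat and S100a10. Values were not scaled, so differences of unequal size add to the distance.

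Kif18b followed Plau sample by sample, with 8.14, 7.64, 7.81 and 7.23 in ACDiEKO, against 6.49, 6.45, 6.48 and 6.35 in control. Adipor2 had the split of S100a10 within ACDiEKO, with 13.47, 14.38, 13.81 and 14.38, against 14.64, 14.63, 14.71 and 14.64 in control. Replicates 3 and 5 of ACDiEKO lay near the controls for Adipor2 as well. Kif18b and Adipor2 were picked for their nearness over these same samples, so the likeness follows from the choice and is no separate result.

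**Figure D3:**
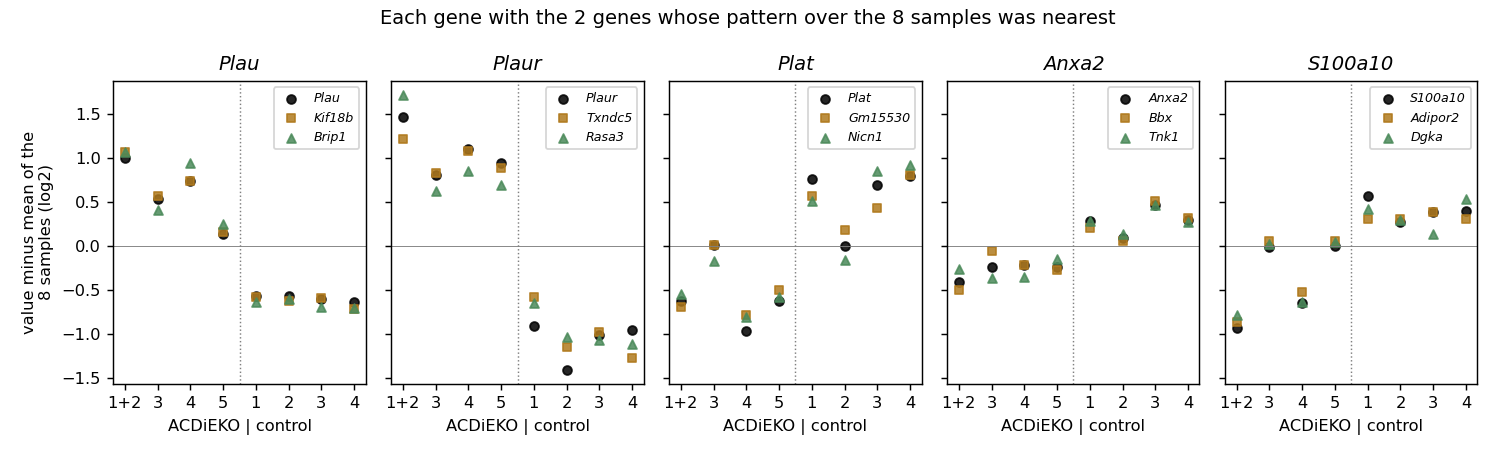
Value minus the mean of the 8 samples (log2, vertical axis) for each plasminogen activation gene (black circles) and its 2 nearest genes (squares and triangles) in the ACDiEKO samples (left of the dotted line; 1+2 is the average of replicates 1 and 2) and the control samples (right). The S100a10 panel shows ACDiEKO replicates 3 and 5 (9.65 and 9.66) apart from the averaged replicates 1 and 2 (8.73) and replicate 4 (9.01).

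Of the marker lists of other cells, smooth muscle alone had means that did not overlap between the groups. The mean of 14 smooth muscle markers was 9.06 to 9.86 in ACDiEKO and 7.91 to 8.75 in control, without overlap. Of 12 tested markers 8 rose, where 8.92% of all tested genes rose. Acta2 rose by 3.19, while the defining gene Myh11 (-0.04), Cnn1 (-0.27), Myocd (-0.15) and Mylk (0.43) did not pass. When the mean of the 12 tested markers entered the fit as a covariate, none of the 5 genes passed in limma (Plaur 1.75, Plau 0.73, Plat -0.52, Anxa2 -0.41, S100a10 -0.19). Nor did any of the 16403 genes, of which 1400 had an unadjusted p under 0.05. The mean of the 14 markers separates the same groups as the genotype, and the part of smooth muscle RNA in the results was not tested.

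Plau and Plaur are also known to be expressed by leukocytes. The mean of 9 leukocyte markers was 6.85 to 9.25 in ACDiEKO and 6.48 to 7.56 in control, and none of 7 tested passed. ACDiEKO replicate 5, with the highest leukocyte mean (9.25), had the lowest Plau value of its group (7.25), while its Plaur value (12.60) was above that of replicate 3 (12.46). With the mean of the 7 tested leukocyte markers as a covariate, Plau differed by 1.40 and Plaur by 2.28. Without ACDiEKO replicate 5 they differed by 1.35 and 2.19. The leukocytes' part in the results was not tested. Of 7 fibroblast markers 1, Pi16, fell (-2.41) and 6 did not pass. These were Dcn (1.20), Lum (0.58), Dpt (0.14), Col1a1 (-0.01), Col3a1 (-0.04) and Col1a2 (-0.45). The fibroblast marker mean was 8.13 to 8.96 in ACDiEKO and 8.56 to 8.93 in control.

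The numbers that open the sample titles put 2 controls apart from a run that holds the other 2 controls and all ACDiEKO mice. Within that run, Plaur differed by 2.23, Plau by 1.17 (adjusted p = 0.0439) and Anxa2 by -0.47 (adjusted p = 0.0479). Plat (-0.93, adjusted p = 0.146) and S100a10 (-0.82, adjusted p = 0.168) kept their sign and did not pass there. Of the other genes named as changed, Serpini1 passed there (-1.32, adjusted p = 0.0286), while Itga5 (0.82), Itgb1 (0.60), Pdgfd (0.90), Anxa1 (0.98), Anxa3 (1.01) and S100b (-1.13) did not.

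**Figure D4:**
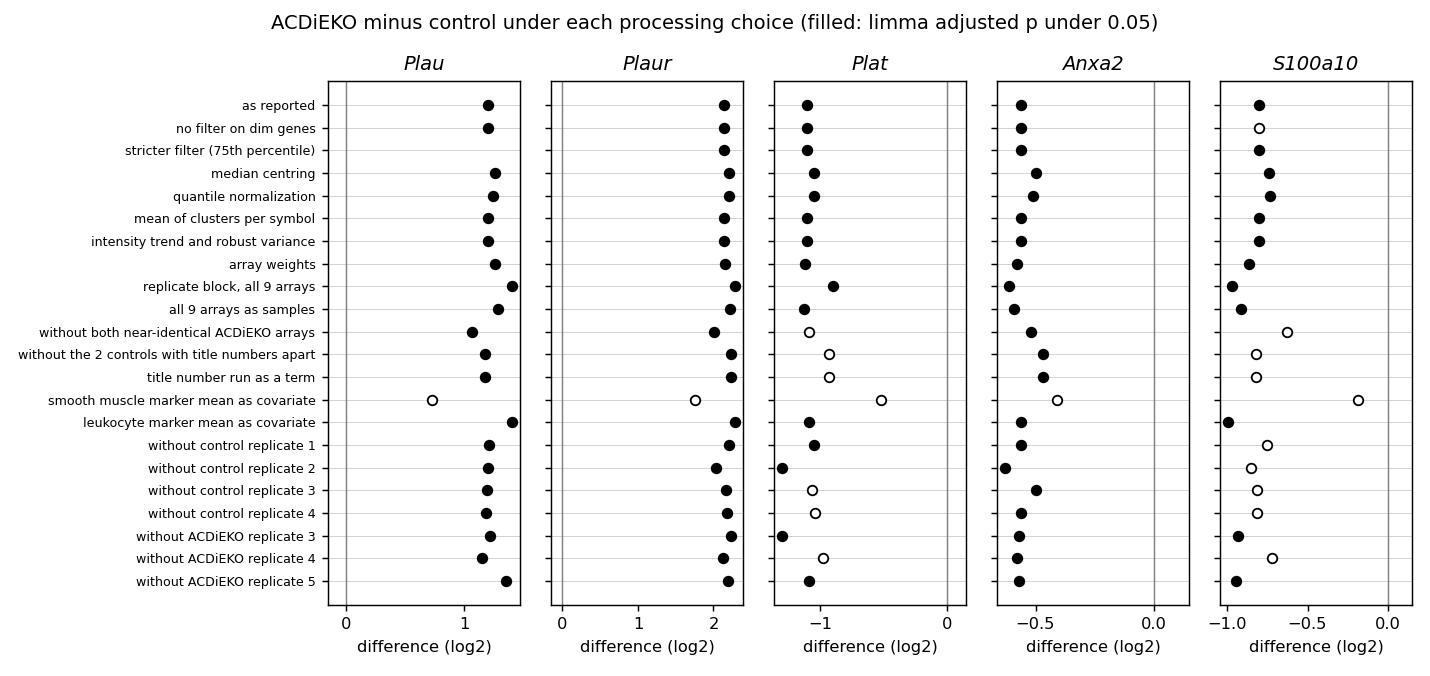
Difference ACDiEKO minus control (log2, horizontal axis) of the 5 genes under each processing choice (rows), filled where limma gave an adjusted p under 0.05 and open where it did not. Plaur ranges from 1.75 to 2.28 and stays filled except with the smooth muscle covariate, while S100a10, which ranges from -0.99 to -0.19, is open in 10 rows. Plau has no point under the stricter filter, which it did not pass.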

How the data were processed

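Expression was read from 9 Clariom D arrays. The authors deposited log2 values, processed by RMA per the submitters' processing notes. They run from 2.58 to 19.34, beyond the 16-bit range of a scanner, so a further scaling step is unknown, and build and annotation are not given in the sources used here. Controls (6732 of 72688 features) were left out. Of 65956 clusters, 30604 carried 1 symbol, 2146 several and 33206 none; 827 symbols were updated through RefSeq gene IDs. The brightest cluster per symbol gave 30142 genes, and 16403 with at least 4 arrays above the table's median (6.165) were tested.

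ACDiEKO and control were compared with limma 3.58.1 (R 4.3.3; lmFit, eBayes, two-sided, Benjamini-Hochberg at 0.05 over all tested genes), with ACDiEKO replicates 1 and 2 averaged, and all adjusted p-values come from it. On simulated data of 16403 genes (5 runs, 200 changed) it recovered 78.4% of changes of 1 log2 unit and 95.8% of 2, with 5.41% false calls. Title numbers after "rep" did not pair arrays (correlations of deviations -0.145 to 0.0413; the second control numbered 3 is called replicate 4).

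The genes, lists and tests were chosen with earlier results of these data known. Named were the 5 genes, of each list all that passed and the 2 brightest that did not, and for each gene the 2 nearest in pattern. Lrp1 was added for the size of its difference. Alternatives were other filters, centring, quantile normalization, cluster means, variance trend, array weights, replicate block, all 9 arrays, title number run, marker covariates and leaving out samples. The number of arrays limits the precision. Figures were drawn with matplotlib 3.10.9.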

Additional observations from a re-analysis of the deposited data

Results flagged for a closer look

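In 84 groups of 4 samples (42 of the genes named in the text, ACDiEKO and control), 6 had 1 sample far from the other 3 by Dixon's test at its 95% critical value, and chance flags about 1 in 20 groups. Cell type markers, neighbouring genes and Lrp1 were not checked. Plat in control replicate 2 was 11 (to 2 decimals), against 11.69 to 11.79 in the other controls. Anxa3 in the same sample was 14.35, against 14.85 to 14.95. In control replicate 1, Serping1 was 9.73 and the others 9.48, and Rasa3 was 9.33, against 8.86 to 8.94. In ACDiEKO replicate 3, Itgb5 was 9.89, against 10.25 to 10.26, and Dlc1 was 7.97, while none of the other 3 exceeded 7.52.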

How the results depend on the processing

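All 5 genes kept their sign under every alternative that tested them. With the smooth muscle marker mean as a covariate, no plasminogen activation, pathway, family or other gene passed (0 in each case, limma; Plau 0.73, Plat -0.52, Plaur 1.75, Anxa2 -0.41, S100a10 -0.19). Under the other alternatives Plau, Plaur and Anxa2 passed each time, except that Plau was dropped by the stricter filter. Plat did not pass without both near-identical ACDiEKO arrays (-1.09), without the 2 controls with title numbers apart (-0.93) or with that run as a term (-0.93), nor did S100a10 (-0.63, -0.82 and -0.82), which also failed with no filter (-0.80); 3 of the 5 genes then passed in the first 3 of these settings. Leaving out 1 sample gave -1.30 to -0.98 for Plat, -0.94 to -0.72 for S100a10, and 3 to 5 genes that passed. The count of pathway genes was 4, 8 with all 9 arrays, 2 without the 2 controls and 2 with the run term (2 to 5 leaving out 1 sample). The count of relatives was 3, 5 with all 9 arrays, 0 without the 2 controls, 1 with the run term and 6 with the leukocyte covariate (1 to 5 leaving out 1 sample). The count of all genes was 2666 (1463 higher and 1203 lower), 1127 without the 2 controls, 1692 with the run term and 1680 to 2465 leaving out 1 sample; median centring gave 1851 higher and 960 lower, and quantile normalization 1970 and 1038. The cause of these changes was not tested. With the replicate number as a replicate block over all 9 arrays, the 5 genes still passed (Plat -0.90, S100a10 -0.97) and 2351 genes passed in all; the numbers do not pair the arrays. The values hold no measured background, so how far dim values such as Plau in control compress a difference is unknown.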
